A study of Mus musculus with 56 samples.

Results

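The transcripts of the 9 enzymes that carry squalene to cholesterol were followed in mouse liver: squalene epoxidase (Sqle), lanosterol synthase (Lss), Cyp51, Tm7sf2, Msmo1, Nsdhl, Ebp, Sc5d and Dhcr7. They were chosen as a listed set of late cholesterol synthesis genes, with no threshold on their values, and are 9 of the 52230 genes whose transcripts were quantified. Liver RNA, in which fewer cells of a type and less RNA per cell cannot be told apart, came from 56 male mice of the P446L line, in which residue 446 of GKRP (the glucokinase regulatory protein, encoded by Gckr) is changed from proline (P) to leucine (L). GKRP holds glucokinase inactive in the nucleus of the hepatocyte. The 446PP, 446PL and 446LL mice are called PP, PL and LL. Each mouse had a high-fat diet with 45% fat and water with 10% glucose and 5% fructose (HFHSD) for 20 weeks and was 28 weeks old at harvest, after 2 h without food. No group on standard diet was included. A subgroup of each genotype also had GKA (3 mg/kg) in the diet. These letters usually stand for a glucokinase activator, and the labels do not name the compound. There were 10 PP, 8 PL and 10 LL mice in the arm without GKA, and again 10 PP, 8 PL and 10 LL mice in the arm with it. PP mouse 7, of the arm without GKA, is not part of the comparisons, which leaves 9 PP mice there.

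Cholesterol is built from acetyl-CoA through mevalonate to squalene, and squalene is then oxidised, closed to the first sterol, lanosterol, and trimmed to cholesterol by enzymes of the endoplasmic reticulum. Many of these genes are targets of the transcription factor SREBP2, which is released for cleavage when sterols in the membrane are low, and which acts at promoters together with the CCAAT-binding factor NF-Y and with Sp1. The liver is a main site of this synthesis, and its rate follows feeding, dietary cholesterol and the time of day.

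The promoters of 6 of the enzymes are shown because these genes varied together from mouse to mouse, with Ebp as the member that followed the others least. Promoter windows of 250 bases before to 50 bases after the gene start were taken from RefSeq (GRCm38.p6), which held windows for 8 of the 9 enzymes, all but Sqle. For Dhcr7, which has 3 windows, the window with CCAAT is printed. Capitals mark CCAAT or, for the other strand, its reverse complement ATTGG. They also mark the GC box, GGGCGG, in either direction, and each sequence runs 5′ to 3′ on the strand of its gene. The windows lie at chr5:4104648-4104947 on the minus strand (Cyp51), chr8:64733529-64733828 on the minus strand (Msmo1), chrX:72918271-72918570 on the plus strand (Nsdhl), chr10:76531355-76531654 on the plus strand (Lss), chr7:143829964-143830263 on the plus strand (Dhcr7) and chrX:8193463-8193762 on the minus strand (Ebp).
Cyp51: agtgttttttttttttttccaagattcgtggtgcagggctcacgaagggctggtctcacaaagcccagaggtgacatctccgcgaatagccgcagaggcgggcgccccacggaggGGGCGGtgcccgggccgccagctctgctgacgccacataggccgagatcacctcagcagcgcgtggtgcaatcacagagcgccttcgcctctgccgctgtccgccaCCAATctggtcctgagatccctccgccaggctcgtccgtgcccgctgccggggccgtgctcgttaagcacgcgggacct
Msmo1: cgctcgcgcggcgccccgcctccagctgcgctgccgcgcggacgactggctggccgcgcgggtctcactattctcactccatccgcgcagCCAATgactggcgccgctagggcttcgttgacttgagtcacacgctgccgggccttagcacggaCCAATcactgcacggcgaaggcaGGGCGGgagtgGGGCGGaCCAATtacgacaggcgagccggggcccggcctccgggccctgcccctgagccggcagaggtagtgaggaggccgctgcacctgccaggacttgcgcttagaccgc
Nsdhl: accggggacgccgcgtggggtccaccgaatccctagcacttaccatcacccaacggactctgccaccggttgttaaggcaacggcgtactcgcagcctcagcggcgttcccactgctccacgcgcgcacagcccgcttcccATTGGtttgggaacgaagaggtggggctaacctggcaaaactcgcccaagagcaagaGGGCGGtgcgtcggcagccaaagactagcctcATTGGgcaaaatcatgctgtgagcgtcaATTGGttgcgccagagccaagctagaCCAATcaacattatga
Lss: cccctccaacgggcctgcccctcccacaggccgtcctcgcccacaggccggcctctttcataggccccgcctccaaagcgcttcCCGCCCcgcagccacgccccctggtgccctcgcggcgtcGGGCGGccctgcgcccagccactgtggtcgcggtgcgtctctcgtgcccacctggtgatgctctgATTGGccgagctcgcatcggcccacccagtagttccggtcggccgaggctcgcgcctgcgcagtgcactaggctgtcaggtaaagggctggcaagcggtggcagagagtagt
Dhcr7: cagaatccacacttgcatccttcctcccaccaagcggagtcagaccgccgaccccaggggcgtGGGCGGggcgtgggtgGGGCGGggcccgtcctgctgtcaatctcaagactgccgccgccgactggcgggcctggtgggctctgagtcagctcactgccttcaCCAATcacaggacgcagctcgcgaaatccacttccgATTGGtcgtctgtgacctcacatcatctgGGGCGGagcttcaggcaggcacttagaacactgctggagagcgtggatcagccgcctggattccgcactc
Ebp: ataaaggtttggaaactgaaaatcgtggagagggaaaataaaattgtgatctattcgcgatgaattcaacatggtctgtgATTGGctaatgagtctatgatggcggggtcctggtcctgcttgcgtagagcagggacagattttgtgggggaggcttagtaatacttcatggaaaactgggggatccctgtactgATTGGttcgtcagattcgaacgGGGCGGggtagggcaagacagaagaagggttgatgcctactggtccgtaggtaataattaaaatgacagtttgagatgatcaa
Both a CCAAT and a GC box were in 8 of the 10 windows of the enzymes, 1 for each of the 8 enzymes, and in 12.8% of all 32851 RefSeq windows. The latter were not chosen by expression in liver. Taken singly, CCAAT was in 37.4% and GGGCGG in 35.7% of all windows. Msmo1 had 3 CCAAT, which started 160, 96 and 55 bases before the gene start. Nsdhl had 4 CCAAT, of which 2 lay after the gene start, while Cyp51 and Lss had 1 each, and Ebp had 2. The letters TCACNCCAC, a form of the sterol regulatory element, were in 0 of the 10 windows of the enzymes and in 1.24% of all windows, and the looser TCANNCCAC was in 0 of 10 and in 4.18%. Elements with other letters, or outside these windows, were not searched for, so the 0 does not speak for them. These matches describe letters in a window, not binding.

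Levels were read as CPM, the read count of a gene divided by the library size in M reads, scaled for composition. Reads assigned per mouse ranged from 5.19 M to 8.09 M (median 6.56 M), and the summed level of 8 hepatocyte markers was between 76800 and 134000 CPM in each mouse used, as the liver label says. Per kilobase of the main coding transcript, Sc5d was the most abundant enzyme, with a median of 209 CPM per kb over 55 mice, before Ebp (61.7), Tm7sf2 (21), Msmo1 (16.9), Dhcr7 (12.8), Nsdhl (9.87), Cyp51 (8.2), Lss (4.19) and Sqle (1.82). By median TPM, which counts each transcript by its own length, Lss (7.52) came before Cyp51 (7.11) and Nsdhl (6.43). The other ranks were the same. Sqle, which adds the first oxygen to squalene, had the lowest level per kilobase of the 9, with 3 to 305 reads per mouse (median 30). It was also the most variable, with a standard deviation within groups of 1.11 on the log2 CPM scale, and its spread was above that of 96.7% of the 2017 genes of like level. Ebp and Sc5d had the narrowest ranges, 2.64 and 2.51 times from the lowest to the highest mouse, against 136 times for Sqle. The depth limits Sqle most: an LL mouse with 3 reads and a PL mouse with 21 reads are each known only within the error of those counts.

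The levels of most enzymes followed the same order over the 6 groups. PL with GKA had the highest group median for each of the 9 enzymes, and LL without GKA had the lowest for 8 of them, the exception being Ebp, which was lowest in LL with GKA. In each of the 9 pair-wise comparisons the ranges of the groups overlapped, for each enzyme.

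Sqle (chr15:59186869-59203043, GRCm39, plus strand) had a lowest, median and highest level of 0.717, 4.27 and 11.9 CPM in PP mice, of 2.72, 9.17 and 15.2 CPM in PL and of 0.422, 1.71 and 6.18 CPM in LL without GKA. With GKA the values were 0.96, 5.18 and 10.3 CPM in PP mice, 1.57, 15.5 and 57.5 CPM in PL and 1.85, 4.1 and 11.1 CPM in LL. All 10 LL mice without GKA lay below the PL median, and 7 of them below the lowest PL mouse. Its exons overlap Washc5 on the opposite strand.

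Lss (chr10:76367298-76392976, plus strand) closes oxidosqualene to lanosterol. Its lowest, median and highest level was 14.9, 17.9 and 34.6 CPM in PP mice, 16.5, 22 and 31.7 CPM in PL and 7.9, 15.4 and 25.2 CPM in LL without GKA. With GKA it was 17.6, 21.3 and 29.6 CPM in PP mice, 15, 31.8 and 51.5 CPM in PL and 13.7, 16.6 and 24.5 CPM in LL. The 3 lowest values of all 55 mice were LL without GKA, among them mouse 46 with 7.9 CPM.

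Cyp51 (chr5:4123416-4154751, minus strand), the sterol demethylase that removes the first methyl group from lanosterol, had 21.2, 33.8 and 48.4 CPM (lowest, median, highest) in PP, 30.2, 37.4 and 52.4 CPM in PL and 13.4, 24 and 31.8 CPM in LL without GKA. With GKA the values were 25.7, 35.2 and 49.3 CPM in PP mice, 21, 51.9 and 111 CPM in PL and 17.4, 31.2 and 53.9 CPM in LL. Of the LL mice without GKA, 9 of 10 lay below the lowest PL mouse. Akap9 overlaps its exons on the opposite strand.

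Tm7sf2 (chr19:6112851-6118403, minus strand), a sterol reductase of the step after Cyp51, had medians of 30.4 CPM in PP mice, 35.4 CPM in PL and 25.6 CPM in LL without GKA, and 29.8, 41 and 31.5 CPM in PP mice, PL and LL with GKA. Over 55 mice it ranged from 16.2 to 81.1 CPM, and exons of Vps51 overlap it on the same strand, so that reads could be shared between them.

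Msmo1 (chr8:65170603-65186830, minus strand), which oxidises the methyl groups left on the sterol, had 30.6, 35.8 and 61.4 CPM in PP mice, 32.4, 50.5 and 68.3 CPM in PL and 22.7, 27.2 and 39.6 CPM in LL without GKA. With GKA it had 22.1, 35.8 and 56.3 CPM in PP mice, 23.5, 73.9 and 118 CPM in PL and 24.5, 30 and 42.8 CPM in LL. All 10 LL mice were below the PL median in each arm, and 8 of 10 were below the lowest PL mouse without GKA. No annotated exon overlaps Msmo1, and its PP median was 35.8 CPM in each arm.

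Nsdhl (chrX:71961712-72002129, plus strand), which works after Msmo1 in the removal of these methyl groups, had 12.8, 21 and 31 CPM in PP mice, 19, 25.9 and 33.4 CPM in PL and 9.98, 15.2 and 24.4 CPM in LL without GKA. With GKA its values were 8.92, 21.5 and 29.1 CPM in PP mice, 15.2, 38.9 and 98 CPM in PL and 12.1, 19.4 and 35.8 CPM in LL. As for Msmo1, 8 of 10 LL mice without GKA were below the lowest PL mouse. Exons of Cetn2 overlap it on the opposite strand.

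Ebp (chrX:8050773-8059795, minus strand), the sterol isomerase, had group medians that lay close together for its spread. They were between 97.8 CPM (LL with GKA) and 120 CPM (PL with GKA), the lowest mouse of a group was between 70.4 and 87.9 CPM, and the highest between 130 and 186 CPM.

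Sc5d (chr9:42162891-42175605, minus strand), the sterol desaturase, had medians of 389 CPM in PP mice, 350 CPM in PL and 283 CPM in LL without GKA, and of 395, 469 and 302 CPM in PP mice, PL and LL with GKA. Here the PL median without GKA was not above that of PP, and the LL median was the lowest in each arm.

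Dhcr7 (chr7:143376740-143402149, plus strand), whose reductase makes cholesterol in the last step of one branch, had 23.2, 31.4 and 48.6 CPM in PP mice, 29.5, 37.5 and 48.4 CPM in PL and 17.9, 24.1 and 39.6 CPM in LL without GKA. With GKA it had 25.4, 34.8 and 51.8 CPM in PP mice, 23.5, 51 and 81.7 CPM in PL and 18.9, 27.7 and 44 CPM in LL. Again 8 of 10 LL mice without GKA were below the lowest PL mouse.

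**Figure D1:**
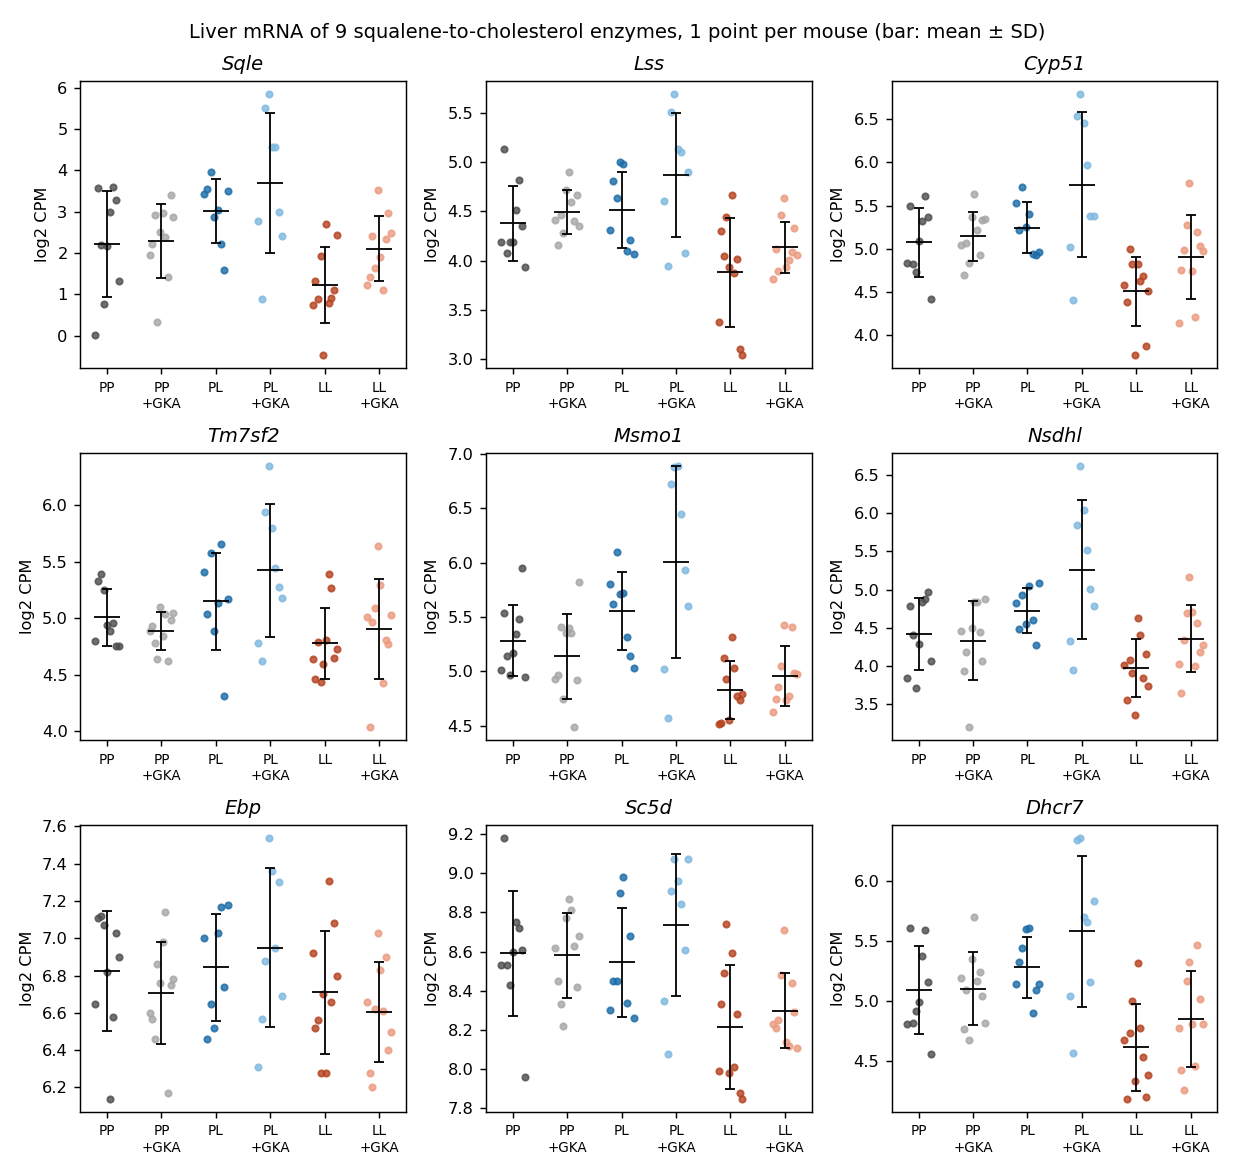
Level of each enzyme (log2 CPM, own axis for each gene) in each mouse, by group, with the group mean and SD. LL mice without GKA are low for most enzymes, and for Sqle the 8 PL mice with GKA have the widest range of the 6 groups, from 1.57 to 57.5 CPM.

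The clearest difference was between the homozygous and the heterozygous mice. In the fit over all 6 groups, LL was lower than PL over both GKA arms for 7 of the 9 enzymes at an adjusted p below 0.05 (edgeR quasi-likelihood test, adjusted over 11477 genes), a threshold that 0.418% of all genes passed in either direction. At an unadjusted p below 0.05, 9 of 9 were lower, against 4.17% of all genes. The fit shares 1 spread per gene among the groups, whereas PL with GKA varied most. The SD of the mean log2 CPM of the 9 enzymes was 0.73 there, against 0.23 to 0.36 in the other groups. In fits of each arm alone, given below, no enzyme passed the adjusted threshold by edgeR. The median log2 fold change of the 9 enzymes was −0.72 (0.606-fold), with a median over all genes of 0.004. Msmo1 had the smallest p of all 11477 genes, with a log2 fold change of −0.99 (SE 0.14, 0.503-fold, adjusted p = 7.5e-05). Sqle had rank 3, with −2.01 (SE 0.34, 0.248-fold, adjusted p = 0.00124). Cyp51 fell to 0.556-fold (log2 −0.85, SE 0.15, adjusted p = 0.0015), Nsdhl to 0.528-fold (−0.92, SE 0.17, adjusted p = 0.00181), Dhcr7 to 0.606-fold (−0.72, SE 0.13, adjusted p = 0.0015) and Lss to 0.61-fold (−0.71, SE 0.14, adjusted p = 0.00227). Sc5d fell less, to 0.761-fold (−0.39, SE 0.09, adjusted p = 0.0323). The exceptions were Tm7sf2 (0.716-fold, adjusted p = 0.0563) and Ebp (0.84-fold, adjusted p = 0.4). With the study's further threshold of at most 0.7-fold or at least 1.3-fold, 6 of the 9 were called, which was the case for 0.314% of all genes. When each PL and LL mouse was left out in turn, between 6 and 8 enzymes had an adjusted p below 0.05. With offsets for the average transcript length of each mouse, 5 enzymes passed it (0.2% of all genes): Sqle, Cyp51, Tm7sf2, Nsdhl and Sc5d. The calls for Msmo1 (log2 −0.79, adjusted p = 0.0918), Lss (−0.76, adjusted p = 0.197) and Dhcr7 (−0.29, adjusted p = 0.781) were lost with this offset, and the value for Dhcr7 had an SE of 0.34.

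**Figure D2:**
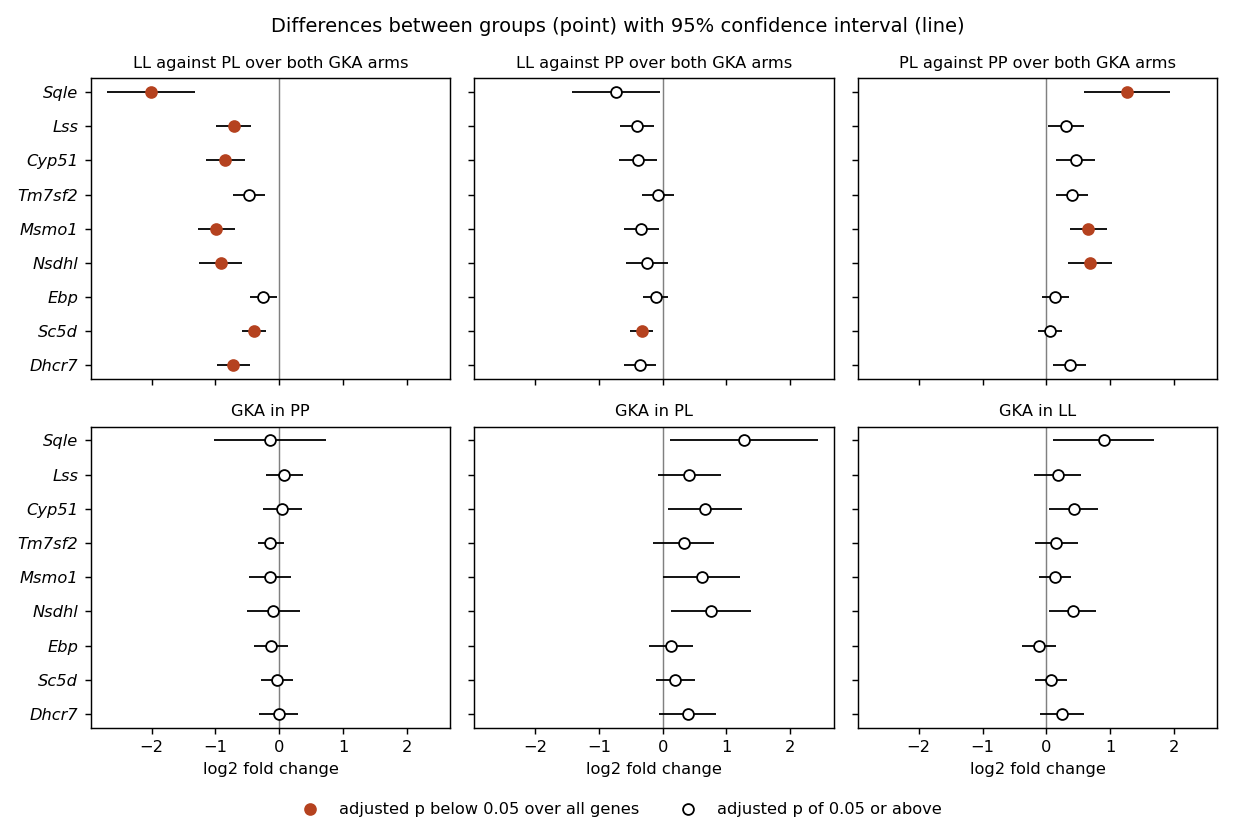
Log2 fold change of each enzyme (point) with its 95% confidence interval (line) in 6 comparisons. Filled points passed an adjusted p below 0.05 over all genes: 7 enzymes in LL against PL, 1 in LL against PP, 3 in PL against PP and 0 in each GKA comparison.

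The arms, which share no mice, gave the same picture separately. Without GKA, 8 of the 9 enzymes were lower in LL than in PL at an unadjusted p below 0.05, all but Ebp, against 2.56% of 10616 genes. The median log2 fold change was −0.66. With GKA, 9 of 9 were lower, against 4.8% of 10491 genes, with a median of −0.84. With these smaller groups, no enzyme reached an adjusted p below 0.05 by edgeR in either arm (lowest for Msmo1, 0.0602 without and 0.124 with GKA), whereas DESeq2 gave 5 enzymes without and 3 with GKA, where it called 0.238% and 0.351% of the genes to which it gave an adjusted p. In the edgeR fit over the 6 groups, which shares 1 spread per gene, the lowest adjusted p was 0.457 without and 0.0015 with GKA. The interaction, which asks if the LL to PL difference itself changed with GKA, had an unadjusted p below 0.05 for 0 of 9 enzymes by both tools. By edgeR, 2.24% of all genes were lower and 1.96% higher at that threshold. For Msmo1 the 95% confidence interval of the interaction was −1.07 to 0.09 on the log2 scale. With offsets for the average transcript length, LL was lower than PL for 9 enzymes without and 6 with GKA at an unadjusted p below 0.05. For the interaction, 3 enzymes passed it with these offsets, 0 of them lower (lowest adjusted p = 0.171, edgeR). The shares of all genes with these offsets were not computed for these comparisons.

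Against PP, the fold changes over both arms were above 1 in PL and below 1 in LL for each of the 9 enzymes. The values for PL include PL with GKA, the group with the widest spread, and no mouse was left out in turn here. Each arm is given separately below. Over both arms, PL was higher than PP for 7 of the 9 enzymes at an unadjusted p below 0.05 (6.87% of all genes), with a median log2 fold change of 0.41. Of these, 3 passed the adjusted threshold (1.91% of all genes): Sqle with 2.42-fold (log2 1.27, SE 0.33, adjusted p = 0.0277), Msmo1 with 1.58-fold (0.66, SE 0.14, adjusted p = 0.00668) and Nsdhl with 1.61-fold (0.68, SE 0.17, adjusted p = 0.0192). Sc5d (1.04-fold) and Ebp (1.11-fold) were the enzymes with the smallest difference. LL was lower than PP for 6 of 9 at an unadjusted p below 0.05 (8.23% of all genes), with a median of −0.34. Only Sc5d passed the adjusted threshold here (3.86% of all genes), at 0.795-fold (log2 −0.33, SE 0.09, adjusted p = 0.0222). With offsets for the average transcript length, 0 enzymes passed the adjusted threshold in either comparison. With a component of clock gene levels as a covariate, 1 passed for PL against PP and 0 for LL against PP. The shares of all genes with these offsets or this covariate were not computed here. These comparisons share the PP, PL or LL mice with one another and are not independent.

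Each arm was then compared with its own PP mice. Without GKA, PL was higher than PP at an unadjusted p below 0.05 for 0 of 9 enzymes (5.09% of 10580 genes), with a median log2 fold change of 0.17. With GKA it was so for 7 of 9 (3.89% of 10520 genes), with a median of 0.63, a log2 fold change of 1.03 (SE 0.27) for Msmo1 and of 1.98 (SE 0.52) for Sqle. LL was lower than PP without GKA for 7 of 9 (5.69% of 10537 genes), all but Tm7sf2 and Ebp, with a median of −0.47. With GKA this held for 2 of 9, Lss and Sc5d (5.11% of 10460 genes), with a median of −0.19. In none of these 4 comparisons was an adjusted p below 0.05 reached by edgeR. DESeq2 gave Cyp51 and Msmo1 for LL against PP without GKA (1.68% of all genes), Msmo1 and Nsdhl for PL against PP with GKA (0.483%), and 0 in the other comparisons. The interactions that test the change of each difference with GKA had no adjusted p below 0.05 by edgeR or DESeq2. At an unadjusted p below 0.05 the one for PL against PP held 4 enzymes higher (1.73% of all genes). The one for LL against PP held 0, where 2.93% of all genes were higher and 3.15% lower.

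The time of day at harvest was not given in the labels, and the clock genes moved with these groups. The first principal component of 16 clock genes had a mean of −0.60 in PP mice, 0.55 in PL and 0.49 in LL without GKA, and of −0.88, 0.56 and 0.04 with GKA. With that component as a covariate, LL was lower than PP without GKA at an unadjusted p below 0.05 for 2 of 9 enzymes instead of 7 (Msmo1 and Nsdhl), and over both arms for 2 instead of 6. The median log2 fold change moved less, from −0.468 to −0.354 without GKA and from −0.336 to −0.255 over both arms. Without GKA, Sqle had −1.17 with the covariate and −1.25 without it, whereas Lss went from −0.45 to −0.0233 and Sc5d from −0.38 to −0.0734. For LL against PL over both arms the count was 9 of 9 with and without it, and 8 instead of 7 at the adjusted threshold. The shares of all genes at these thresholds with the covariate were not computed. The part of the time of day in the difference of LL from PP was not tested further.

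GKA itself was compared within each genotype. In PP, 0 of 9 had an unadjusted p below 0.05 (1.49% of 10548 genes were higher), the median log2 fold change was −0.09, and the 95% confidence interval for Msmo1 was −0.47 to 0.19. In PL, Sqle, Cyp51, Msmo1 and Nsdhl were higher with GKA at an unadjusted p below 0.05 (1.47% of 10399 genes), with log2 fold changes of 1.28, 0.67, 0.62 and 0.76 and a median over the 9 of 0.42. In LL, Sqle, Cyp51 and Nsdhl were higher, by 0.90, 0.43 and 0.42 (2.95% of 10458 genes), with a median of 0.18. Over the 3 genotypes, 5 of 9 were higher at an unadjusted p below 0.05 (2.68% of all genes). No enzyme had an adjusted p below 0.05 in any GKA comparison by edgeR or by DESeq2.

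The result for GKA in PL rested on few mice. PL mouse 32 with GKA had the highest level of Sqle, Lss, Cyp51, Tm7sf2, Nsdhl, Ebp and Dhcr7 of all 55 mice, and mouse 33 that of Msmo1. By the mean of the 9 standardised levels, mice 32, 31, 33 and 34 ranked 1 to 4 of 55 (2.72, 2.05, 1.93 and 1.38 SD), while mouse 30 of the same group ranked 49 (−0.99 SD). Sqle was 57.5, 45.4, 23.5 and 23.3 CPM in mice 32, 31, 33 and 34, and 7.69, 6.58, 5.01 and 1.57 CPM in mice 35, 29, 36 and 30. Without mouse 32 the count for GKA in PL dropped from 4 to 0 enzymes, without mouse 31 to 1 and without mouse 33 to 2. It was also 2 when PL mouse 24, 26 or 27 without GKA was left out, and 6 without mouse 30. With offsets for the average transcript length of each mouse the count was 2, and 4 of the 9 values turned negative: Lss, Cyp51 (−0.266, p = 0.557), Dhcr7 and Ebp, which was lower with GKA at −1.11 (p = 0.00803, edgeR, unadjusted). In PL against PP with GKA the count stayed between 6 and 8 whichever mouse was left out.

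**Figure D3:**
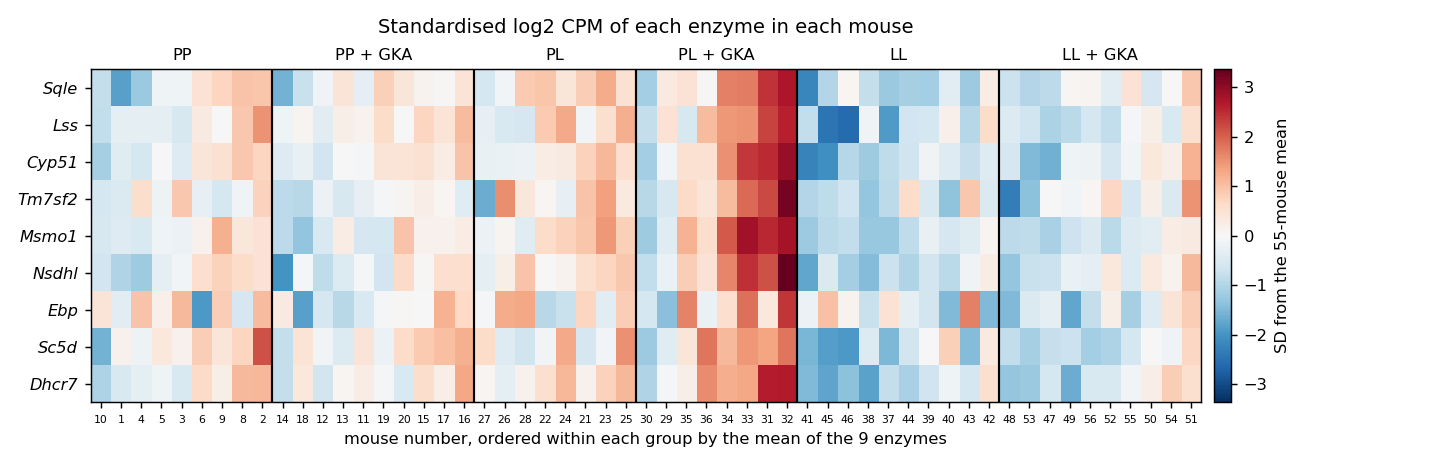
Each column is 1 of 55 mice and each row 1 enzyme, coloured by its distance in SD from the mean of all mice, with mice ordered within their group by the mean of the 9 enzymes. In PL with GKA the colours run from blue (mouse 30) to deep red (mouse 32) for most enzymes at once, while the row of Ebp departs from the others.

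The enzymes also varied together between mice of the same group. After group means were removed, the 36 pairs had Pearson correlations from −0.08 to 0.84 over 55 mice (median 0.59, Spearman 0.55). Of these, 30 pairs by Pearson and 28 by Spearman had an adjusted p below 0.05 (two-sided permutation test within groups, 100000 permutations, adjusted over 36 pairs). Cyp51 and Msmo1 were the closest pair (r = 0.84, Spearman 0.84, each with p = 1e-05, the smallest that the permutations can give). With the 2 mice farthest from the median of Cyp51 left out, r was 0.79. Ebp stood apart: its 8 pairs had a median of 0.18, against 0.67 for the 28 pairs without it, and its closest partner was Tm7sf2 (0.57). Without the 8 PL mice with GKA the median was 0.55 for the 28 pairs and −0.04 for the 8 pairs with Ebp. All values of a mouse come from 1 library. The share of other gene pairs that would pass the same test was not computed. The median correlation of each enzyme with the 11476 other genes was between −0.03 and 0.00. With group means removed, the mean of the 9 enzymes had a correlation with reads per mouse of 0.02 (Spearman −0.02) and with the clock component of −0.20 (Spearman −0.22). Its correlation with summed cell type markers was −0.38 for stellate cells (Spearman −0.29), −0.36 for endothelium (−0.20), −0.31 for hepatocytes (−0.21), −0.28 for blood (−0.35) and −0.24 for adipose tissue (−0.01), and lay between −0.22 and 0.12 for the other 5 marker lists. The stellate cell markers summed to between 104 and 220 CPM in PL with GKA and between 122 and 321 CPM in LL with GKA. The part of these markers in the result was not tested.

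**Figure D4:**
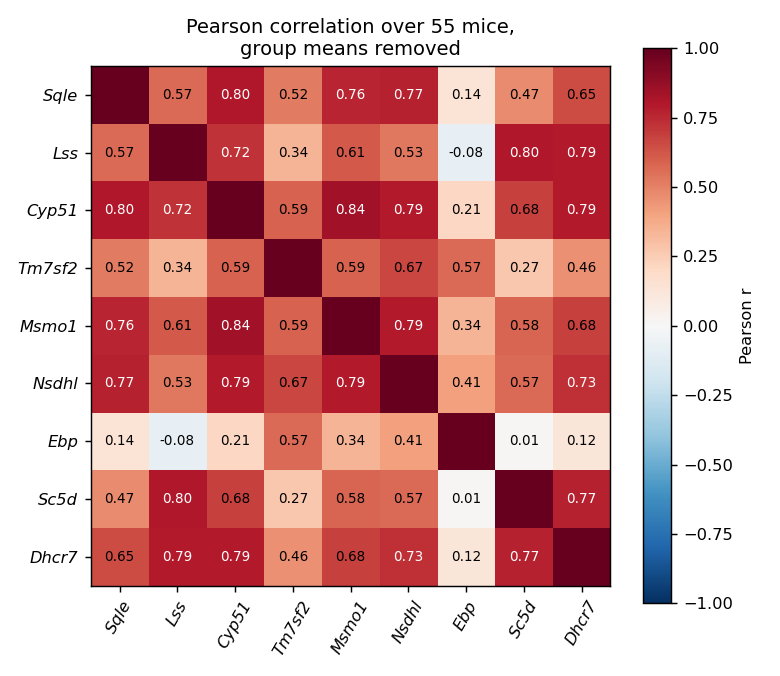
Pearson correlation of each pair of enzymes over 55 mice after group means were removed, from −0.08 (Lss with Ebp) to 0.84 (Cyp51 with Msmo1). The row and column of Ebp are pale, while most other pairs are above 0.5.

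Among 7566 genes with at least 5 CPM on average, those whose level followed the mean of the 9 enzymes most closely within groups were Rdh11 (r = 0.87), Idi1 (0.86), Pmvk (0.85), Fdps (0.85) and Acss2 (0.77), with Spearman correlations from 0.70 to 0.88. Idi1, Pmvk and Fdps belong to the route from mevalonate to squalene, Rdh11 encodes a retinol dehydrogenase and Acss2 makes acetyl-CoA from acetate. The most negative were Cyp3a59 (−0.63), Slc40a1 (−0.61), Gpat4 (−0.61), Tppp (−0.59) and Tbc1d16 (−0.58), with Spearman correlations from −0.61 to −0.41. Among them Slc40a1 encodes the iron exporter ferroportin and Gpat4 an acyltransferase of glycerolipid synthesis, while Cyp3a59 belongs to a family of close copies between which reads may be split. These genes were picked as the extremes of all genes, so that the values are descriptions with no test.

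Other genes of the pathway were read from fixed lists. The 9 enzymes from acetyl-CoA to squalene differed like the late enzymes: over both arms 9 of 9 were lower in LL than in PL at an unadjusted p below 0.05, and 6 at the adjusted threshold, against 4.17% and 0.418% of all genes, with a median log2 fold change of −0.77. Among them Idi1 had −1.14 (SE 0.18, adjusted p = 4.84e-04) and Fdft1, which makes squalene, −0.61 (SE 0.11, adjusted p = 0.0015). Further late genes had smaller differences: Hsd17b7, which acts with Msmo1 and Nsdhl, had −0.37 (adjusted p = 0.0867), Erg28, a scaffold of that complex, −0.31 (adjusted p = 0.114), and Lbr, a reductase that shares the step of Tm7sf2, −0.19 (adjusted p = 0.709).

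Of 8 genes of sterol control and uptake, 6 were lower in LL than in PL at an unadjusted p below 0.05 and 2 at the adjusted threshold, again against 4.17% and 0.418% of all genes. Among them Insig1, the retention protein that is itself an SREBP target, had −0.83 (SE 0.17, adjusted p = 0.00823). Srebf2 had −0.28 (adjusted p = 0.084). The 6 electron donors and partners had a median of 0.04, and 1 of 6, Cyb5b, was lower at an unadjusted p below 0.05 (4.17% of all genes), with an adjusted p of 0.302 by edgeR. Por, the reductase that feeds electrons to Cyp51 and Sqle, had 0.20 (SE 0.21) for LL against PL and was higher in LL than in PP (0.68, SE 0.21, adjusted p = 0.0477).

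**Figure D5:**
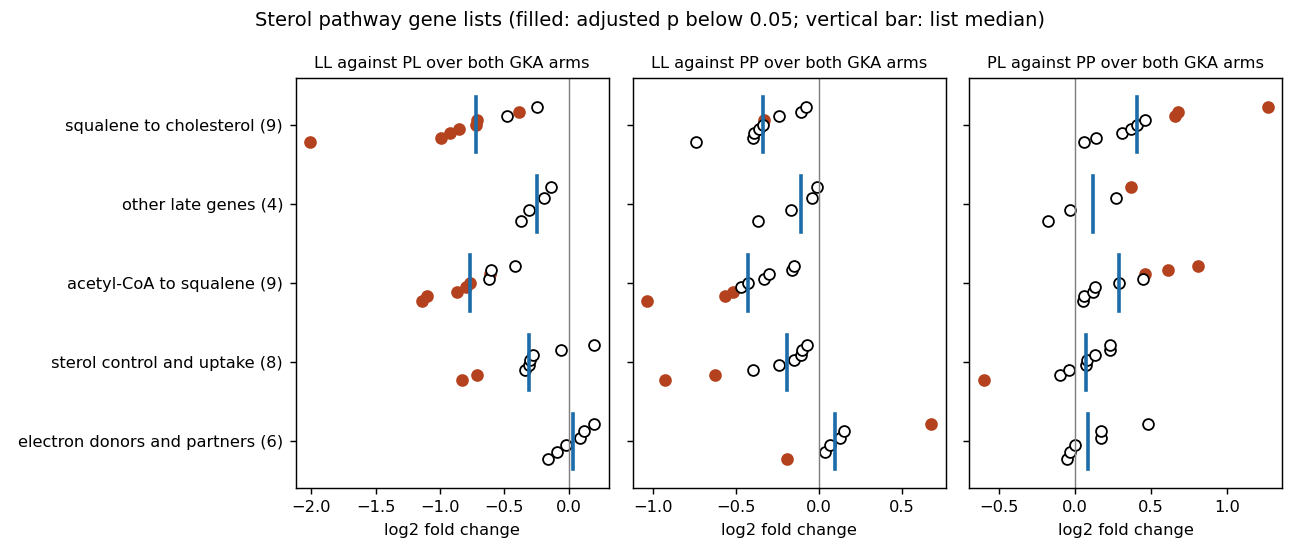
Log2 fold change of each gene of 5 lists in 3 comparisons over both GKA arms, with the list median as a bar and filled points for an adjusted p below 0.05. In LL against PL the medians are −0.72 for the 9 late enzymes, −0.77 for the 9 enzymes up to squalene and 0.04 for the 6 electron donors and partners.

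The transcripts behind each gene were read from the same estimates. For Sqle, Lss, Cyp51, Tm7sf2, Msmo1, Nsdhl, Ebp and Dhcr7 a single coding transcript held most reads on average, from 64.3% (Lss-201) to 100% (Nsdhl-201). Sc5d was the exception, with 50.5% of its reads on Sc5d-202 and 40.3% on the longer Sc5d-201. Between mice, the shares of Sqle-201 and Dhcr7-202 each ranged from 0% to 100%. Of the reads of Lss, 21.4% were assigned to Lss-204, a transcript with a retained intron, with group means from 17.1% (PP) to 24.1% (LL). The short coding transcript Ebp-203 held 17.6% ± 9.94 (SD, n = 8) of the reads of Ebp in PL and 2.38% ± 5.06 (n = 8) in PL with GKA, and between 7.29% and 15.1% in the other groups, a difference that was not tested. Such shares are estimates, since short reads of these transcripts overlap, and a short transcript weighs heavily per length: Lss-202 held 3.45% of the reads of Lss and 36% of its TPM.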

How the data were processed

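Liver RNA with an integrity number above 6 was sequenced from 56 mice. The authors trimmed no reads and ran Salmon 1.4.0 on GENCODE M26 mouse transcripts (GRCm39), per the study's methods and the submitters' processing notes, which also name FastQC. Each deposited file gives an estimated count (not normalised) and TPM for 139225 transcripts of 1 mouse, and per the file headers the further columns are transcript length and effective length. Transcripts were assigned to genes in GENCODE vM39 (GRCm39), where 98.8% matched. Estimated counts were summed per gene and rounded. Gene positions are those of this annotation.

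Groups came from the labels, which give no batch, litter or time of day. PP mouse 7 was left out as in the study. Counts were tested with edgeR 4.0.16 (quasi-likelihood test, TMM scaling, filterByExpr) for each pair of groups, as in the study's pair-wise design, and in 1 fit over the 6 groups for contrasts over both GKA arms and interactions, with Benjamini-Hochberg adjustment over all genes tested. DESeq2 1.42.0 and further scalings, filters and covariates were alternatives. The edgeR steps were tested on simulated data. Intervals are 95% confidence intervals of the fold change. TPM was used for transcript shares, for a second order of the enzymes by level and, with effective lengths, for the average transcript length of each mouse. blastn (BLAST+ 2.17.0) was used to look for near copies of the main coding transcripts among all GENCODE transcripts (at least 90% identity over at least 100 bases): 5 matches were to genes that overlap the enzyme and 1, of 206 bases, was between Sc5d and Gm31520, which had a median of 0 reads.

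The 9 enzymes and all gene lists were chosen with earlier results of these data known. Genes named are the enzymes, list members given with their list's counts, and the 5 genes most and 5 least correlated with the mean standardised level of the enzymes. Some list members are counted with their list but not reported singly here. In results for groups of mice, p-values measure the spread between mice. The fit over the 6 groups shares 1 spread per gene among them. PL with GKA had the largest SD of the mean log2 CPM of the 9 enzymes, 0.73, against 0.23 to 0.36 in the other groups. The labels do not say whether mice of a group shared a litter or cage.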

Additional observations from a re-analysis of the deposited data

Results flagged for a closer look

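Of the 27 tests that ask if the difference between groups of a given enzyme changed with GKA (9 enzymes, 3 genotype contrasts), 4 had an unadjusted p below 0.05, all for PL against PP. The change of the log2 fold change was 1.42 for Sqle (95% confidence interval 0.08 to 2.77), 0.63 for Cyp51 (0.01 to 1.24), 0.76 for Msmo1 (0.17 to 1.34) and 0.84 for Nsdhl (0.16 to 1.53). No adjusted p was below 0.05 by edgeR or DESeq2 (adjusted p = 1 for each of the 4 by edgeR), and 1.73% of all genes were higher at the same unadjusted threshold. With PP mouse 7 kept, 2 enzymes passed it. No mouse was flagged as standing apart from its group for a single enzyme among the 54 sets of values tested for 1 distant value. This test can miss several high mice in the same group, as in PL with GKA.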

How the results depend on the processing

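For the counts of enzymes at an unadjusted p below 0.05, the clock component as a covariate gave 2 instead of 7 for LL against PP without GKA, 2 instead of 6 for LL against PP over both arms, 2 instead of 0 for PL against PP without GKA and 3 instead of 5 for GKA over the 3 genotypes; at the adjusted threshold it gave 0 instead of 1 for LL against PP and 1 instead of 3 for PL against PP. All 6 groups in 1 fit gave 1 instead of 2 for LL against PP with GKA, 1 instead of 3 for GKA in LL and 6 instead of 4 for GKA in PL. PP mouse 7 kept gave 2 instead of 4 for the interaction of GKA with PL against PP. Offsets for the average transcript length gave 1 for LL against PP with GKA, 2 for GKA in PL, 4 for PL against PP over both arms, 2 for GKA over the 3 genotypes and 3 for the interaction with LL against PP (median 0.725 instead of 0.27), and at the adjusted threshold 0 for LL against PP and for PL against PP and 5 instead of 7 for LL against PL over both arms. With this offset GKA in PL was −0.623 for Lss, −0.266 for Cyp51, −1.11 for Ebp (p = 0.00803, edgeR) and −0.004 for Dhcr7, where the main values were above 0. The average length that enters it ran from 103 to 1526 bases over mice for Ebp, from 67 to 2385 for Dhcr7, from 388 to 4917 for Lss and from 1487 to 1997 for Nsdhl. Including the counts of 6 and 5 above, 202 counts and medians moved by at most 1.5 times or by less than the spread between mice. Among them, the length offset gave 7 instead of 9 for LL against PL over both arms. With GKA it gave 6 instead of 9, and without GKA 9 instead of 8. It gave 5 instead of 7 for LL against PP without GKA and for PL against PP with GKA, and 4 instead of 6 for LL against PP over both arms. The shares of all genes with the settings named here were not computed, except for LL against PL over both arms at the adjusted threshold.

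With each mouse left out in turn, the count ranged from 0 to 6 and the median from 0.288 to 0.521 for GKA in PL, from 6 to 8 and −0.551 to −0.409 for LL against PP without GKA, from 7 to 8 and −0.748 to −0.603 for LL against PL without GKA, from 7 to 9 and −0.939 to −0.701 for LL against PL with GKA, from 6 to 8 and 0.473 to 0.727 for PL against PP with GKA, and from 8 to 9 (6 to 8 adjusted) and −0.781 to −0.664 for LL against PL over both arms. The last and LL against PL with GKA were left-out fits chosen after seeing the data, as were the counts at the adjusted threshold. No paired analysis was possible because the mouse numbers in the labels are not shared between groups. Depth limits Sqle most, with a median of 30 reads.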
